A study of Ovis aries with 6 samples.

Results

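The genes described here are 38 genes of DNA replication and S phase, the cell cycle phase in which the genome is copied, measured in sheep cells with and without forced MEOX2, a homeobox transcription factor of the mesoderm. They were taken by symbol from a list of replication factors that was chosen with earlier results of these data known. Of the 38, 36 had a row among the 26425 rows of the deposited gene table. MCM2 and UHRF1 were not matched to a row by symbol or synonym and were not analysed here. The cells came from the stromal vascular fraction of sheep (Ovis aries) adipose tissue, the cell mixture left when fat cells are removed, while the sample labels name the cell type adipocyte. The MEOX2 group holds 3 samples, labelled overexpressing MEOX2, and the control group holds 3 samples labelled NC. The columns of both groups in the deposited table begin with pHBLV, a prefix that the sources used here do not explain. The promoter that drives MEOX2, the time of harvest and the age of the animals were not given in the sources used here, nor whether the 3 samples of a group came from separate animals or cultures. The p-values therefore cover only sample-to-sample spread, part or all of which may be technical.

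Replication begins in G1, when the origin recognition complex, CDC6 and CDT1 load the ring-shaped MCM helicase onto DNA. At the G1/S border, cyclin E with CDK2 and the E2F transcription factors drive entry into S phase; CDC45, GINS and MCM10 then turn the loaded helicase on, and polymerases, the sliding clamp PCNA, its loader RFC and the enzymes of Okazaki fragment joining copy the strands. Many of these genes are known E2F targets whose mRNA is high in dividing cells and falls when cells leave the cycle, and fat cell precursors leave the cycle as they differentiate. In bulk RNA, fewer cells in S phase and less RNA per such cell cannot be told apart.

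Values are FPKM, reads scaled for the length of the gene and the depth of the library. Reads recovered from them totalled 11772772 to 12230863 per library. In the order of the replicate numbers, MEOX2 itself was at 153, 108 and 138 FPKM in the MEOX2 samples and at 10.8, 10.1 and 9.03 FPKM in the NC samples, and its reads do not separate the introduced from the endogenous gene. On the second principal component (22.2% of variance) NC sample 3 lay far from the rest, so counts are also given without it. Most stromal markers were abundant, with DCN, a matrix proteoglycan of fibroblasts, at 2874 to 3704 FPKM, but CD34 was at only 0.380 to 1.59 FPKM. On this list all 8 were tested, and limma and limma voom each called 0 (backgrounds 2.67% and 4.37% of all genes tested). At an unadjusted p under 0.05 there were 3 (background 13.4%): PDGFRA and LUM higher with MEOX2, and CD34 lower. Of the mature adipocyte markers, the fat cell hormone gene LEP was listed at 0 in every library, and PLIN1, CIDEC and CEBPA averaged 2.09, 2.08 and 3.54 FPKM. FABP4, a fatty acid carrier of fat cells, was at 68.4 to 255 FPKM. LPL was at 36.3 to 44.5 FPKM, ADIPOQ at 5.92 to 39.6 FPKM and PPARG at 7.31 to 14.2 FPKM. The 8 mature adipocyte markers summed to 128 to 150 FPKM with MEOX2 and 299 to 360 FPKM in NC, with 5 of the 7 tested called lower. The 5 smooth muscle and pericyte markers with a row summed to 92.0 to 106 FPKM with MEOX2 and 65.6 to 71.8 FPKM in NC. Of the 3 tested, 2 were called higher, CNN1 and CSPG4. MYH11 was level, at means of 5.63 FPKM with MEOX2 and 5.47 FPKM in NC, and RGS5 and DES averaged 0.13 and 0.55 FPKM. The part of these marker shifts in the results below was not tested. Markers of endothelial cells (1.71 to 3.36 FPKM summed) and of mesothelial and epithelial cells (1.93 to 3.17 FPKM) were low. The 7 leukocyte markers summed to 122 to 134 FPKM with MEOX2 and 115 to 122 FPKM in NC, nearly all of it CD14, at 100 to 123 FPKM, with the macrophage markers CD68 at 6.63 to 9.84 and CD163 at 1.33 to 2.80 FPKM. None of the 4 leukocyte markers tested was called by limma, against 1 at an unadjusted p under 0.05 and 1, CD163, lower by limma voom (adjusted p = 0.0134). PTPRC, the surface protein CD45 of all leukocytes, reached at most 0.042 FPKM.

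Replication mRNAs had on the whole slightly lower values in cells with forced MEOX2, and no single gene of the 36 passed the test. All 36 rows passed the filter of a mean of at least 1 FPKM. None was called by limma at an adjusted p under 0.05, nor by limma voom on recovered reads, against a background of 2.67% of the 13121 genes tested by limma and 4.37% by voom. The smallest limma adjusted p was 0.150, for PCNA. The fitted log2 change of FPKM + 1 was below 0 for 33 of the 36 genes, where 50.7% of all genes tested were below 0. Its median was -0.15, beside -0.0027 over all genes tested, a median that the library scaling holds near 0. The list was chosen with earlier results of these data known, and its genes share the same libraries, so counts over it are descriptive. At an unadjusted p under 0.05 the count was 7 lower and 0 higher, against backgrounds of 6.35% and 7.08%. The values of both groups failed to overlap for 7 genes, PCNA, RRM2, FEN1, GINS1, TYMS, E2F1 and MCM4, all lower with MEOX2 and none higher; of all genes tested, 9.33% were lower and 9.6% higher without overlap. For each of these 7 the exact two-sided permutation p was 0.1, the least that groups of 3 can give. Without NC sample 3 the log2 change was below 0 for 30 genes (background 50.7%) with a median of -0.17, 9 were lower at an unadjusted p under 0.05 (background 7.42%), and 16 were lower without overlap (background 16.5%).

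**Figure D1:**
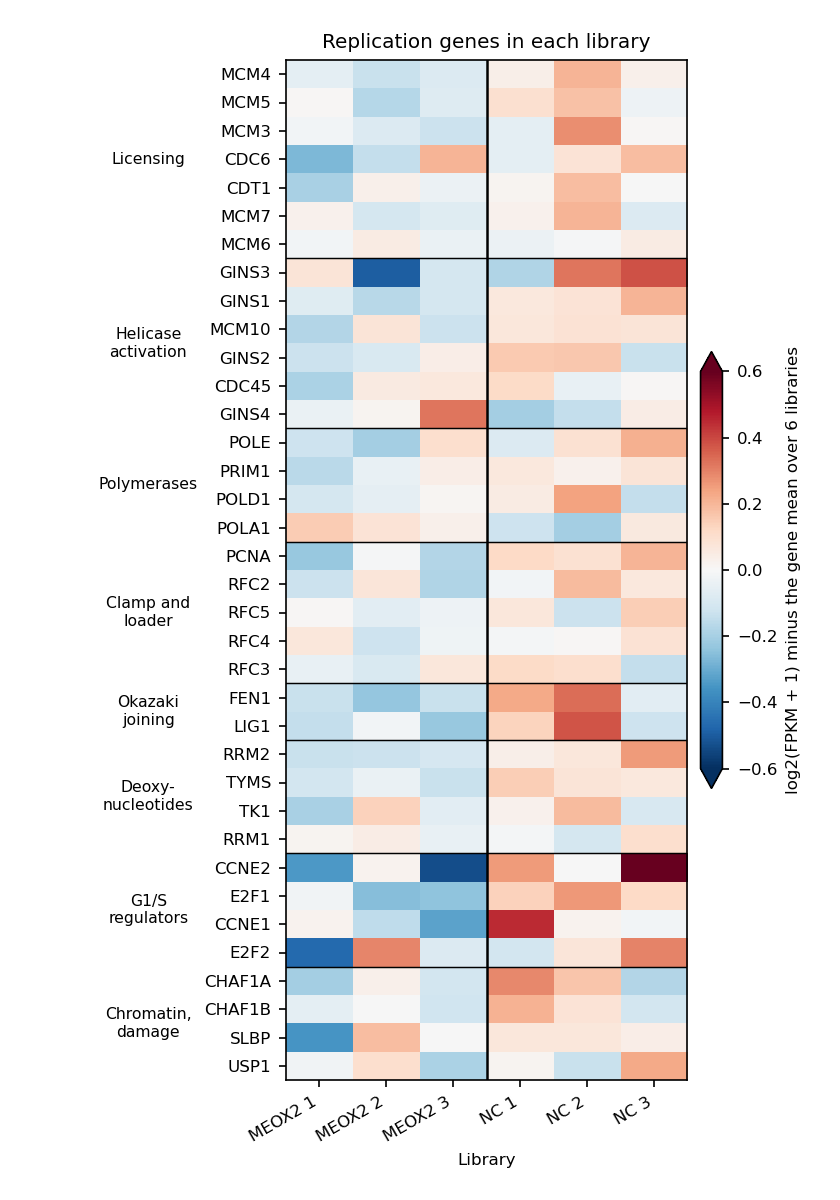
Each row is 1 of the 36 replication genes, grouped by role, and each column 1 library; colour gives log2(FPKM + 1) minus the gene's mean over the 6 libraries. The NC columns are mostly above the mean (24 to 28 of 36 genes) and the MEOX2 columns mostly below it (8 to 14 of 36 above).

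The shift was spread over the libraries of both groups. MEOX2 sample 1 held the lowest value of 11 genes, and MEOX2 samples 2 and 3 the lowest of 9 each, whereas NC samples 1, 2 and 3 held the lowest of 1, 3 and 3. The highest value lay in NC sample 2 for 13 genes, in NC sample 3 for 12 and in NC sample 1 for 6, leaving 5 with their highest value in a MEOX2 library. The median deviation of the 36 genes from their own means on the log2 scale was -0.11, -0.043 and -0.079 in MEOX2 samples 1 to 3. For the NC group it was 0.055, 0.084 and 0.054, while over all genes tested it lay between 0.0034 and 0.0053 in every library. The library scaling behind these FPKM values holds the median of all genes near 0, so the all-gene values are a reference only. Together the 36 genes took 0.135%, 0.146% and 0.142% of the recovered reads in the MEOX2 group and 0.153%, 0.157% and 0.156% in the NC group. MEOX2 sample 1 was the lowest by either measure, and without it the 36 genes had a median log2 change of -0.11 and 29 of 36 were below 0 (background 50.2%).

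Levels covered a wide range, and FPKM, being per length, allows them to be compared between genes. PCNA was the most abundant at a mean of 91.9 FPKM over the 6 libraries and E2F2, an S phase activator, the least at 1.34 FPKM. The median gene stood at 12.6 FPKM, with 7 genes under 5 FPKM and 14 at 20 FPKM or more. Reads per gene and library ran from 10 for E2F2 to 2086 for MCM7, and 3 genes, E2F2, GINS3 and CCNE2, had under 50 reads in at least 1 library. The deposited table gives positions on 18 chromosomes, whose genome build was not given in the sources used here; chromosome 14 carries 6 of the genes and chromosome 13 carries 4. The rows of CCNE2 and E2F1 overlap those of INTS8 (1727 bases, other strand) and NECAB3 (44 bases, same strand), which could share reads with them. The CDT1 row overlaps that of APRT (711 bases, other strand), which held 0 reads in every library. An unnamed protein-coding row on the other strand spans the SLBP row, with at most 2 reads in any library.

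Origin licensing was represented by 7 genes, and all 7 had log2 changes below 0, from -0.18 to -0.0032, with a median of -0.14. MCM4, a helicase subunit (chromosome 9, 32400920 to 32411149), was at 30.6, 29.0 and 30.2 FPKM with MEOX2 and at 32.8, 37.0 and 32.6 FPKM in NC. Each MEOX2 library was under each NC library, and the means differed by a factor of 0.877. MCM4 had a log2 change of -0.18 (SE 0.081, limma adjusted p = 0.382). MCM5 was at 28.2, 24.8 and 26.5 FPKM with MEOX2 and 30.1, 31.8 and 27.4 FPKM in NC, overlapping only where MEOX2 sample 1 exceeded NC sample 3.

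MCM7 was the most abundant helicase subunit, at 66.5 ± 3.20 FPKM (SD, n = 3) with MEOX2 and 71.6 ± 7.34 FPKM (SD, n = 3) in NC. By library it was at 70.1, 64.0 and 65.5 FPKM with MEOX2 and 70.2, 79.6 and 65.1 FPKM in NC. NC sample 2 alone was above the range of 64.0 to 70.2 FPKM that held the other 5 libraries. Within the span of MCM7 lie 3 miRNA rows, with at most 3 reads in any library. MCM6 was nearly level, at 39.0 ± 1.30 and 39.1 ± 1.23 FPKM (SD, n = 3 each), and the 95% interval of its change ran from 0.890-fold to 1.12-fold. MCM3, CDC6 and CDT1 had log2 changes of -0.15, -0.14 and -0.13, with overlapping groups. For CDC6, the loader ATPase, the groups spanned 4.32 to 6.398 FPKM with MEOX2 and 5.16 to 6.298 FPKM in NC.

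Helicase activation was covered by 6 genes, 5 below 0 and 1 above. GINS1 (chromosome 13, 52921513 to 52934511), a subunit of the tetrameric GINS complex that joins CDC45 and MCM in the active helicase, was at 15.2, 14.1 and 14.8 FPKM with MEOX2. In NC it was at 16.8, 17.0 and 18.6 FPKM, so the groups did not overlap. The log2 change of GINS1 was -0.23 (SE 0.084, limma adjusted p = 0.247). GINS3 was at 5.26, 3.21 and 4.52 FPKM with MEOX2 and 4.22, 6.4 and 6.72 FPKM in NC, on 26 to 54 reads per library, and its groups overlapped. GINS4 had the opposite sign, at 5.87, 6.15 and 7.82 against 5.14, 5.41 and 6.297 FPKM (log2 change 0.20, 95% interval -0.097 to 0.49). MCM10, GINS2 and CDC45 had log2 changes of -0.15, -0.12 and -0.050. The CDC45 row lies within the span of C22orf39 on the other strand, and reads of this pair cannot be told apart here.

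Among polymerase genes, POLA1, the catalytic subunit of polymerase alpha, which extends RNA primers, was at 12.8, 12.1 and 11.7 FPKM with MEOX2 against 10.3, 9.76 and 11.9 FPKM in NC. NC sample 3 lay above MEOX2 sample 3, and the log2 change of 0.18 (SE 0.099) had a limma adjusted p of 0.501. PRIM1, the primase subunit that makes those primers, was at 13.2, 14.4 and 15.3 FPKM with MEOX2 and 15.6, 15.1 and 15.8 FPKM in NC. POLD1 and POLE, the lagging and leading strand polymerases, had log2 changes of -0.099 and -0.15 and overlapping groups. An unnamed protein-coding row with the same strand spans the POLD1 row, so reads of POLD1 are uncertain.

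PCNA, the ring that holds polymerases on DNA (ENSOARG00000017133, chromosome 13, 46615171 to 46619285), had the smallest p of the 36. It was at 77.9, 90.9 and 80.8 FPKM with MEOX2 and at 99.4, 97.3 and 105 FPKM in NC. The highest MEOX2 library stayed under the lowest NC library. Means were 83.2 ± 6.82 and 101 ± 4.17 FPKM (SD, n = 3 each), a ratio of 0.826. The log2 change was -0.27 (SE 0.082, 95% interval -0.46 to -0.089), with an unadjusted limma p of 0.0087 and an adjusted p of 0.150. The 4 subunits of the clamp loader measured here had smaller estimates: RFC2 had a log2 change of -0.16, at 12.6, 14.6 and 12.1 against 13.7, 15.97 and 14.5 FPKM, and RFC3, RFC4 and RFC5 lay between -0.059 and -0.048.

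FEN1 and LIG1 remove the flap of an Okazaki fragment and seal the nick. FEN1 (chromosome 21, 39647405 to 39648523) was at 11.5, 10.7 and 11.5 FPKM with MEOX2 and 15.1, 16.4 and 12.2 FPKM in NC, with no overlap. LIG1 was at 10.8, 11.9 and 10.1 FPKM with MEOX2 and 13.3, 15.97 and 10.99 FPKM in NC, overlapping through NC sample 3. In both genes NC sample 3 was the lowest NC library. The log2 change of FEN1 was -0.33 (SE 0.12, limma adjusted p = 0.226), and -0.45 without NC sample 3 (limma adjusted p = 0.0572). That of LIG1 was -0.26 (SE 0.13), and -0.38 without NC sample 3.

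Of the 4 genes of deoxynucleotide supply, RRM2 and TYMS were lower without overlap, and TK1 and RRM1 overlapped. RRM2, the S phase-regulated small subunit of ribonucleotide reductase (chromosome 3, 19185138 to 19191043), was at 41.2, 41.3 and 42.2 FPKM with MEOX2 and 46.5, 47.5 and 54.2 FPKM in NC. The MEOX2 libraries lay within 1 FPKM of each other. Its log2 change was -0.24 (SE 0.082, limma adjusted p = 0.218). TYMS, thymidylate synthase, which makes dTMP, was at 54.2, 56.9 and 53.2 FPKM with MEOX2 and 64.8, 61.7 and 61.1 FPKM in NC. TYMS had a log2 change of -0.19 (SE 0.071, limma adjusted p = 0.273), and COLEC12 overlaps its row on the other strand. TK1, thymidine kinase of the salvage route, was at 33.7 ± 4.09 and 35.6 ± 3.70 FPKM (SD, n = 3 each). RRM1, the large reductase subunit, was at 55.6, 56.8 and 53.3 FPKM with MEOX2 and 54.6, 51.1 and 59.0 FPKM in NC, with a log2 change of 0.010 and a 95% interval of 0.889-fold to 1.14-fold.

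The G1/S regulators held the largest estimated change of the 36, that of CCNE2, and some of the lowest read numbers. CCNE2, a cyclin E that activates CDK2, was at 2.33, 3.29 and 1.92 FPKM with MEOX2 and 4.04, 3.22 and 5.39 FPKM in NC, on 31 to 88 reads per library. MEOX2 sample 2 lay just above NC sample 2, so the groups overlapped. The ratio of means was 0.595, with a log2 change of -0.57 (SE 0.20, limma adjusted p = 0.224). CCNE1, its paralog, was at 4.96, 4.30 and 3.72 FPKM with MEOX2 and 7.03, 4.97 and 4.81 FPKM in NC (log2 change -0.30, SE 0.16). E2F1, an activator of the E2F family (chromosome 13, 62561490 to 62564343), was at 2.49, 1.96 and 1.996 FPKM with MEOX2 and 2.89, 3.23 and 2.85 FPKM in NC. E2F1 showed no overlap, with a log2 change of -0.34 (SE 0.13, limma adjusted p = 0.286). E2F2 spanned 0.663 to 1.82 FPKM with MEOX2 and 1.13 to 1.83 FPKM in NC.

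Chromatin and damage tolerance genes overlapped throughout. CHAF1A, the large subunit of the CAF-1 histone chaperone that places histones behind the fork, was at 10.4, 12.4 and 11.2 FPKM with MEOX2 and 15.1, 13.8 and 10.6 FPKM in NC. NC sample 3 again lay within the MEOX2 range, and the log2 change was -0.19 (-0.32 without NC sample 3, limma adjusted p = 0.191). CHAF1B had a log2 change of -0.12. SLBP, which binds the stem-loop of histone mRNA, was at 49.98, 73.1 and 64.1 FPKM with MEOX2 and 67.3, 67.5 and 66.0 FPKM in NC. MEOX2 samples 1 and 2 held both its lowest and its highest value, and the sign of its change turned without MEOX2 sample 1. USP1, which removes ubiquitin from PCNA and FANCD2, had a log2 change of -0.073.

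**Figure D2:**
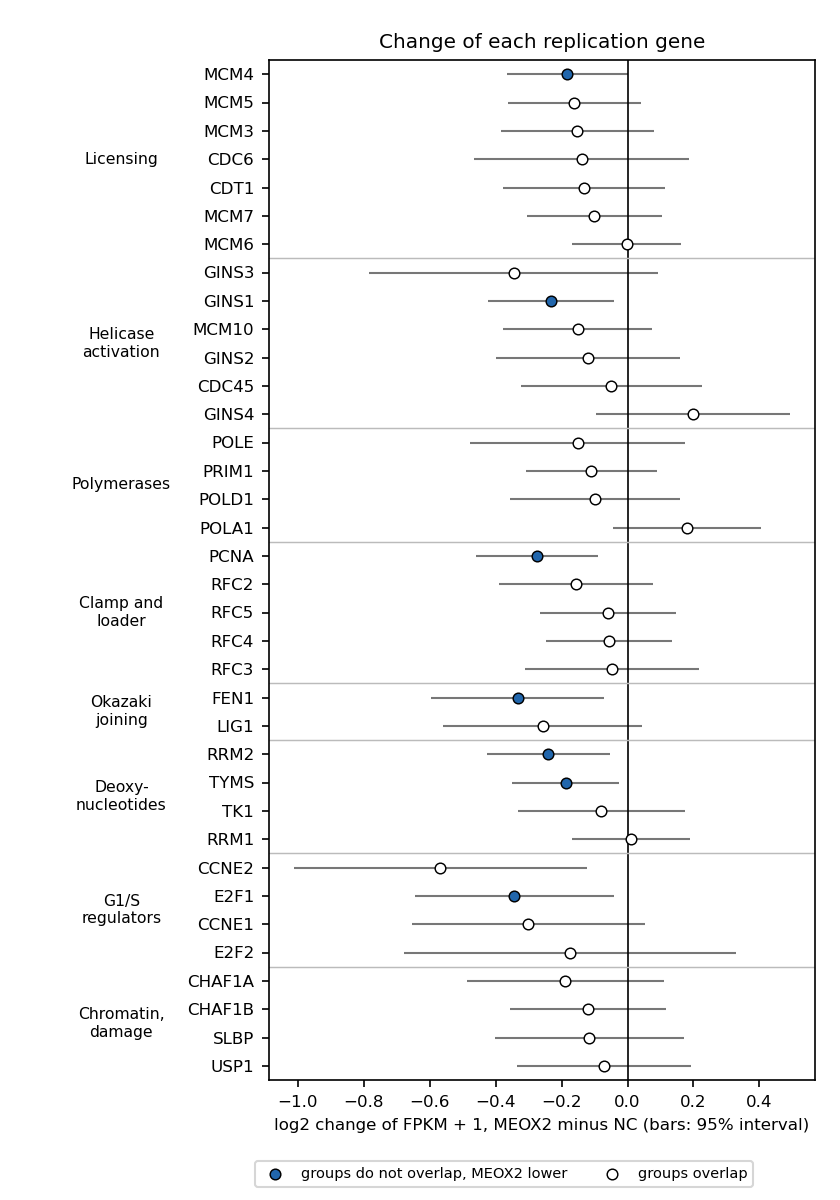
Points give the fitted log2 change of FPKM + 1, MEOX2 minus NC, of each of the 36 genes by role; bars are 95% intervals and filled points mark the 7 genes whose groups do not overlap. Of the 36 points, 33 lie left of 0, and GINS4, POLA1 and RRM1 lie right of it.

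The intervals bound how large a change these libraries allow on the FPKM + 1 scale. For 30 of the 36 genes the 95% interval lay within 1.5-fold in either direction, and for 35 within 2-fold. On that scale CCNE2 was the exception, reaching down to 0.495-fold. The scale narrows the intervals of low genes such as E2F2, at a mean of 1.34 FPKM, so these intervals do not bound the change of their FPKM. The within-group SD on the log2 scale had a median of 0.12 over the 36 genes, beside 0.14 over all genes tested. Between libraries of a group, the median deviation of the 36 genes had a pooled SD of 0.026 on the log2 scale.

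Subunits of a complex act in fixed proportions, and their FPKM shares within a library do not depend on library scaling. The share of RRM2 in the sum of RRM1 and RRM2 was 42.6%, 42.1% and 44.2% with MEOX2 and 46.0%, 48.2% and 47.9% in NC. The ratio of RRM2 to RRM1 was thus 0.742, 0.728 and 0.791 with MEOX2 and 0.851, 0.930 and 0.918 in NC, without overlap. GINS4 took 19.1%, 21.9% and 24.3% of the GINS sum with MEOX2 and 16.2%, 15.7% and 17.5% in NC. POLA1 took 49.2%, 45.7% and 43.2% of the sum of POLA1 and PRIM1 with MEOX2 and 39.9%, 39.2% and 42.9% in NC, again without overlap. The share of MCM4 among MCM3 to MCM7 was 16.2% ± 0.316 with MEOX2 and 17.0% ± 0.153 in NC (SD, n = 3 each), and the other 4 MCM shares overlapped. Shares within CAF-1 and RFC overlapped too, with CHAF1A at 47.5% to 50.8% and 48.9% to 51.8%. These shares were chosen after the values were seen and carry no test.

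**Figure D3:**
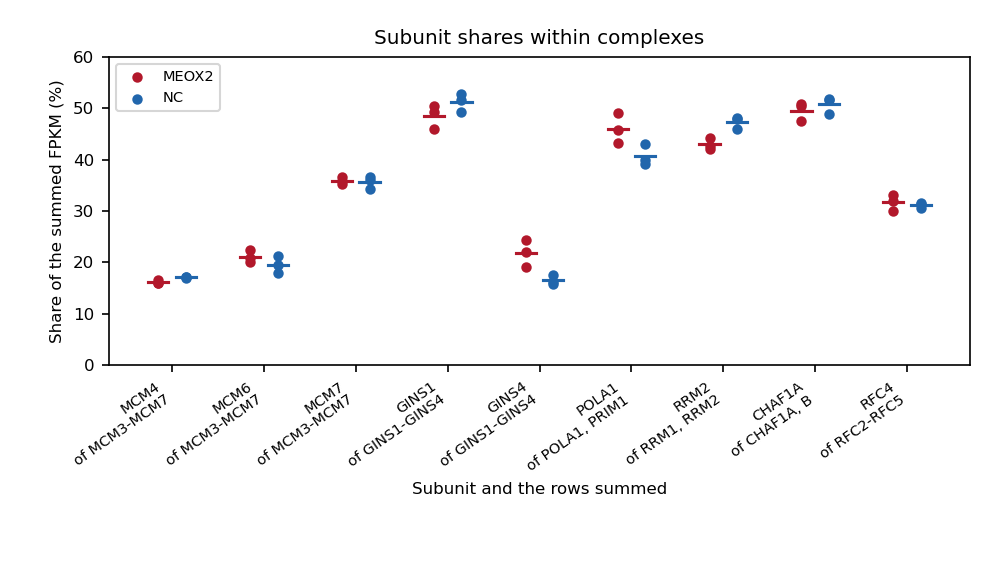
Dots give the share of a subunit in the summed FPKM of the rows named under it, in percent, for each library; lines are group means of 3 MEOX2 (red) and 3 NC (blue) samples. RRM2 (42.1% to 44.2% against 46.0% to 48.2%), GINS4, POLA1 and MCM4 are separated by group, and the other 5 shares shown overlap.

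Most other genes of replication also had log2 changes below 0. Of 46 further factors (origin recognition, kinases of firing, fork protection, remaining polymerase subunits, single-strand binding), 43 were tested and neither limma nor limma voom called any, and 2 (4.65%) were lower at an unadjusted p under 0.05, less than the 6.35% of all genes tested. A log2 change below 0 was found for 36 of the 43 (background 50.7%), with a median of -0.10, and 11 were lower without overlap (background 9.33%). RPA3, the small subunit of the single-strand binding protein RPA, was at 42.6, 58.2 and 44.8 FPKM with MEOX2 and 66.1, 66.6 and 59.3 FPKM in NC (log2 change -0.40, limma adjusted p = 0.149). Each MEOX2 library was under each NC library, and RPA3 passed the threshold without MEOX2 sample 2 (limma adjusted p = 0.0369). RPA2 was at 26.3 ± 1.37 and 29.8 ± 1.58 FPKM, and TIMELESS, a fork protection factor listed as TIM, at 6.21 ± 0.561 and 7.77 ± 0.325 FPKM (SD, n = 3 each), both without overlap.

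Genes of nucleotide supply and breakdown did not share the sign. Of 23 listed, 16 were tested, 10 were above 0 and 6 below, with a median of 0.054. Limma and limma voom each called 0 (backgrounds 2.67% and 4.37%), and 1 was lower at an unadjusted p under 0.05 (6.25%, background 6.35%). That 1 was DCTPP1, which degrades modified dCTP, at 29.2 ± 0.668 and 36.2 ± 4.16 FPKM (SD, n = 3 each). TK2, the mitochondrial thymidine kinase, was at 14.05, 13.5 and 13.6 FPKM with MEOX2 and 13.01, 11.5 and 11.9 FPKM in NC. TK2 was thus higher with MEOX2 without overlap, as were 9.6% of all genes tested. CTPS1, CTP synthase, was at 13.1 ± 1.36 and 11.4 ± 1.62 FPKM (SD, n = 3 each).

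Among 25 further G1/S regulators tested, limma called 1, which was lower with MEOX2, and 24 were not called (background 2.67%). Limma voom called 2 (background 4.37%), and 3 were lower at an unadjusted p under 0.05 (12%, background 6.35%). FBXO5, the EMI1 protein that restrains the anaphase-promoting complex through S phase (chromosome 8, 76466658 to 76471151), fell from 7.74 ± 0.527 to 5.17 ± 0.227 FPKM (SD, n = 3 each). It was at 5.02, 5.44 and 5.07 FPKM with MEOX2 and 7.51, 7.37 and 8.34 FPKM in NC. Its log2 change was -0.50 (SE 0.099, limma adjusted p = 0.0370), and leaving out any of the 6 libraries ended the call (limma adjusted p from 0.0760 to 0.137), as did a fit with no filter on low genes or with a replicate block. E2F8, a repressor of the E2F family, was at 1.52, 1.48 and 1.48 FPKM with MEOX2 and 2.19, 2.32 and 2.40 FPKM in NC. E2F8 was not called by limma (adjusted p = 0.190) and was lower by limma voom (adjusted p = 0.0428). MYC was at 27.2, 36.7 and 34.6 FPKM with MEOX2 and 42.6, 45.2 and 37.2 FPKM in NC (limma adjusted p = 0.250).

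CDK inhibitors, the brakes of the G1/S step, were measured by 5 of 8 listed genes. Limma and limma voom each called 1 of the 5, CDKN2C (backgrounds 2.67% and 4.37%). CDKN2C, an inhibitor of CDK4 and CDK6, fell from 64.3, 65.9 and 50.1 FPKM in NC to 35.01, 40.6 and 40.5 FPKM with MEOX2 (log2 change -0.62, limma adjusted p = 0.0307). Its call was lost without MEOX2 sample 1, 2 or 3 or NC sample 1 or 2 (limma adjusted p up to 0.131), with no filter (0.0878) and with no trend (0.0631). The call held without NC sample 3 (limma adjusted p = 0.0103) and by limma voom (adjusted p = 0.00298). CDKN1A, the p21 inhibitor that also binds PCNA, was at 431, 404 and 387 FPKM with MEOX2 and 344, 405 and 353 FPKM in NC, with overlap. CDKN1B was at 10.3 ± 0.615 and 9.94 ± 0.638 FPKM (SD, n = 3 each).

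Of 15 genes of chromatin assembly and DNA methylation upkeep, limma and limma voom each called 0 (backgrounds 2.67% and 4.37%). An unadjusted p under 0.05 was reached by 0 (background 13.4%), and 11 were below 0 (background 50.7%), with a median of -0.073. DNMT1, which copies methylation onto the new strand, was at 14.4, 13.8 and 14.2 FPKM with MEOX2 and 15.7, 16.1 and 15.3 FPKM in NC, without overlap. CDCA7 and the histone chaperone HIRA had log2 changes of -0.18 and -0.14. Of 34 genes of G2 and mitosis tested, the phases after S, limma and limma voom called 0 (backgrounds 2.67% and 4.37%). Lower genes with an unadjusted p under 0.05 numbered 6 (background 6.35%), and 11 were lower and 1 higher without overlap (backgrounds 9.33% and 9.6%). Their median log2 change was -0.18, with 28 of 34 below 0 (background 50.7%). CCNA2, cyclin A, was at 12.8 ± 0.258 and 16.2 ± 1.51 FPKM, KIF20A, a mitotic kinesin, at 17.9 ± 1.56 and 21.9 ± 0.387 FPKM, and UBE2C, a ubiquitin-conjugating enzyme of mitotic exit, at 37.5 ± 7.63 and 48.7 ± 3.18 FPKM (SD, n = 3 each). The replication genes and the G2/M genes come from the same 6 libraries, and the difference between both lists was not tested.

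**Figure D4:**
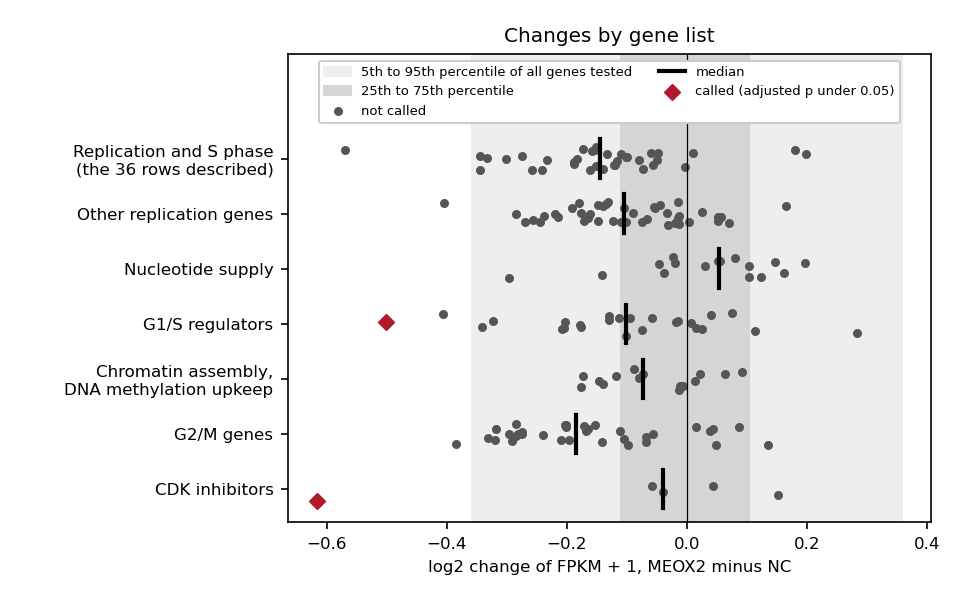
Each dot is 1 tested gene, placed by its log2 change of FPKM + 1, MEOX2 minus NC; black lines are list medians, grey bands the percentiles of all 13121 genes tested, and red diamonds the called genes. The medians of the replication (-0.15) and G2/M (-0.18) lists lie left of 0 and that of nucleotide supply (0.054) right of it; the bands show the spread of single genes and are no measure for a list's median.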

How the data were processed

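RNA was extracted with TRIzol and made into NEBNext Ultra libraries, per the labels' protocols. The submitters' processing notes name fastp, CASAVA 1.8, DESeq2 1.20.0, HISAT2 2.0.5 and featureCounts 1.5.0-p3 without roles; build, annotation and strand setting were not given in the sources used here. The authors deposited FPKM values; multiplied by gene length, these were whole reads in every library (100% within 0.001 of a read), at library sizes equal to size factors times the geometric mean total.

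Log2(FPKM + 1) of genes averaging 1 FPKM or more was fitted in R 4.3.3 with limma 3.58.1 (eBayes with trend, MEOX2 minus NC, no covariate), adjusted by Benjamini-Hochberg over all 13121 genes at 0.05. Changes of low genes are understated on this scale. The fit was tested on simulated data. Chi-square per gene between libraries of a group was 3.49 to 11.1, so none repeated another; no batch is labelled. Members and lists were chosen with earlier results of these data known. Of 238 listed symbols, 2 were matched by synonym in the RefSeq gene table, 1 by hand, and 25 not at all. Sample values are given for the 14 members with the smallest p, the 3 highest and the first of each role, and for GINS4, PRIM1 and RRM1, chosen after their values were seen, with sample values, means or changes for up to 3 genes of each other list. Alternatives changed the pseudocount, filter, scaling, variance model, replicate block or library set, or used limma voom on recovered reads. Python 3.11.15, numpy 2.4.6, pandas 2.3.3, scipy 1.17.1 and matplotlib 3.10.9 were used.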

Additional observations from a re-analysis of the deposited data

How the results depend on the processing

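None of the 36 replication genes was called under any of the 16 alternatives; the smallest limma adjusted p among the 17 that the naming rule picks was 0.0572. Their median log2 change of -0.15 kept its sign, with leave-one-out values of -0.17 to -0.11. With a library left out, 29 to 34 of 36 were below 0, 3 to 9 were lower at an unadjusted p under 0.05 (3 without MEOX2 sample 3, 4 without MEOX2 sample 2) against 5.04% to 7.42% of all genes, and 9 to 16 were lower without overlap against 12.6% to 16.5%, since fewer samples overlap less; these counts were added after seeing the data. SLBP ranged from -0.24 to 0.033 and CDKN1B from -0.0033 to 0.084 in such fits. Of all genes, 350 were called, 194 without a filter, 574 by limma voom, and 117 to 276 with a library left out. The 1 called G1/S regulator became 0 without a filter, 2 without the trend, 2 by limma voom and 0 with any library left out. The 1 called CDK inhibitor became 0 without a filter, 0 without the trend and 0 to 1 with a library left out, and stayed 1 by limma voom. Of the other replication genes, 0 to 1 was called with a library left out. With the replicate number as a block, 242 genes and 0 G1/S regulators were called. The sources used here gave no link between same-numbered samples beyond the number. Their correlations of deviations were -0.075, 0.020 and -0.0042, and not every sample correlated best with its own number. With 3 samples per group these values cannot show whether same-numbered samples shared a preparation. Depth limits the lowest genes most: E2F2 rested on 10 to 30 reads per library. Whether more samples or reads would have given calls was not tested.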
